A study of Homo sapiens with 60 samples.

Results

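The high dose of an ethanol extract of Paeoniae Radix was set against the high dose of an ethanol extract of Cinnamomi Cortex in HT29 cells. The libraries were chosen by their labels alone: 3 titled as the high dose of Paeoniae Radix and 3 titled as the high dose of Cinnamomi Cortex, 6 of the 60 libraries used from the series. HT29 is an established human colorectal adenocarcinoma line whose cells keep features of goblet cells and enterocytes. Gene expression was measured by RNA sequencing 24 h after treatment. Both high doses were 500 µg/mL, both medium doses 100 µg/mL and both low doses 20 µg/mL, with 3 libraries per dose, so the extracts can be compared at matched doses. The vehicle was dimethyl sulfoxide (DMSO), also with 3 libraries; the labels put it at 0.1%, the text on the series at 2%, and no label gives the solvent that came with an extract dose. In the sample codes the Paeoniae Radix libraries carry code set 11 and the Cinnamomi Cortex libraries code set 13. A fixed difference between these sets cannot be told apart from a difference between the extracts at a single dose. Each gene was therefore also tested for a difference between the extracts in their change from the low to the high dose, in which a fixed difference between code sets cancels.

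Paeoniae Radix is the dried root of peony and Cinnamomi Cortex the dried bark of cinnamon, both used in Korean and Chinese formulas. Several transcriptional programmes of colon cancer cells respond to such mixtures. When sterols fall, SREBP proteins leave the endoplasmic reticulum and switch on the genes of cholesterol synthesis and uptake. When amino acids run short or proteins misfold, the translation of ATF4 rises and with it genes for amino acid import, synthesis and stress signalling. Zinc bound by the factor MTF1 switches on metallothioneins, small proteins that buffer zinc and copper.

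The 6 high-dose libraries held 22251437 to 27118934 counts and 21354 to 22277 detected genes, within the range of all 21 libraries of the 7 groups described here (20103369 to 31134188 counts). The share of counts from mitochondrial genes was 7.57 to 8.15% with high Paeoniae Radix and 7.65 to 8.46% with high Cinnamomi Cortex, against 9.41 to 12.3% with vehicle. All 11 markers of colon epithelium were present, and their summed level was 13000 to 13200 CPM (counts scaled to the library total) with high Paeoniae Radix and 12100 to 12500 CPM with high Cinnamomi Cortex. Of 14 markers of other cell types, 6 were at 0 in all 3 high Paeoniae Radix libraries (ALB, CD3E, CDH5, HBB, PDGFRB and PTPRC) and ALB alone in all 3 high Cinnamomi Cortex libraries. Their sums, 1510 to 1540 and 1530 to 1600 CPM, were nearly all lysozyme (LYZ), at 1500 to 1540 and 1520 to 1590 CPM. The first low Cinnamomi Cortex library stood apart from the other low libraries of that extract, with a chi-square per gene of 12.51 to 13.67 against 2.73 between those others. Among the vehicle libraries the same measure was 13.74 between 1 and 3, 6.44 between 2 and 3 and 4.11 between 1 and 2. Without the first low Cinnamomi Cortex library, 656 genes were called from low to high dose within that extract, against 1009 with all libraries. Without the second or the third low library the count was 711 or 710. The difference of dose changes was called for 469 genes without the first, and for 723 or 608 without the second or the third. The part of the epithelial sums and of the vehicle libraries in the results was not tested.

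The extracts separated at the high dose and hardly at the lower doses. At 500 µg/mL, 1568 of 16608 genes tested (9.44%) differed between Paeoniae Radix and Cinnamomi Cortex at an edgeR adjusted p below 0.05, 974 of them higher and 594 lower with Paeoniae Radix. At 20 µg/mL 12 genes differed (0.0723%), 11 higher (0.0662%) and 1 lower (0.00602%). At 100 µg/mL 3 genes differed (0.0181%), 1 higher (0.00602%) and 2 lower (0.012%). With no adjustment, p was below 0.05 for 3653, 1471 and 1248 genes at the high, low and medium dose. None of the 1568 was called at the low dose in either direction by edgeR. The low-dose count was itself unsteady, at 157 genes without the second low Paeoniae Radix library and 0 without the first. The differences were mostly small: the median size of the called high-dose differences was 0.22 on the log2 scale, and 41 genes exceeded 1.

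**Figure D1:**
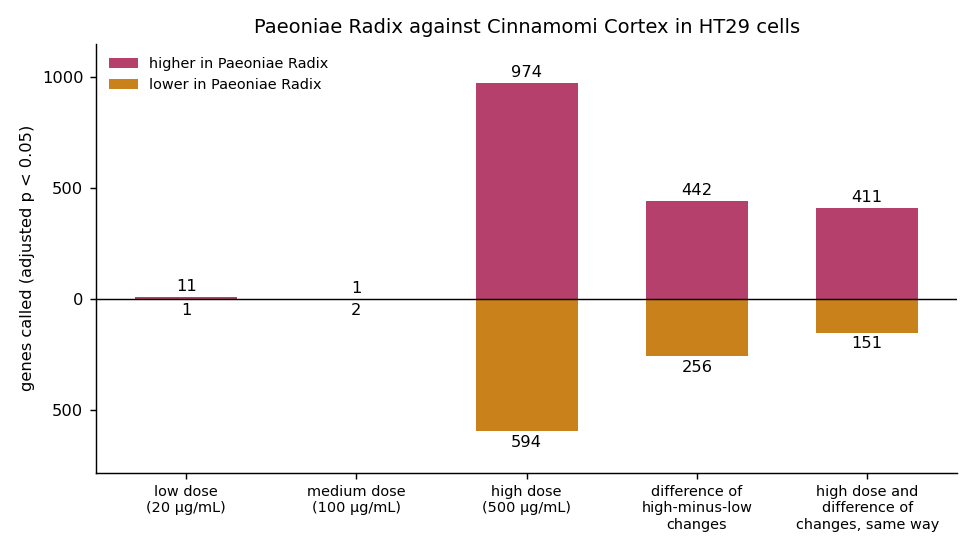
Number of genes called (adjusted p below 0.05, y axis) between Paeoniae Radix and Cinnamomi Cortex at each matched dose, in the difference of their high-minus-low changes, and in both the high-dose comparison and that difference in the same direction. Bars above 0 count genes higher with Paeoniae Radix and bars below 0 genes lower with it; 974 and 594 were called at the high dose, 11 and 1 at the low dose.

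The change from low to high dose differed between the extracts for 698 genes (4.2%), 442 (2.66%) with the higher log2 change under Paeoniae Radix and 256 (1.54%) with the lower. Within Paeoniae Radix 1579 genes (9.51%) changed from low to high dose, and within Cinnamomi Cortex 1009 (6.08%). Of the 1568 genes, 562 (3.38% of those tested) were also called in this test in the same direction, 411 higher and 151 lower with Paeoniae Radix. Libraries of the extracts did not overlap at the high dose in 555 of the 562. Over all genes tested they did not overlap in 11.5% with Paeoniae Radix above and 14.3% with it below. The lack of overlap comes from the same libraries as the calls and is no separate support. The 562 genes are the set followed here. These 562 are called dose-dependent differences below. Among them, 326 changed between the low and high dose only under Paeoniae Radix by the test within that extract, 128 only under Cinnamomi Cortex, 55 under both and 53 under neither. In 39 of the 55 the changes had opposite signs, which choosing genes by a difference between the changes favours. Over all genes tested, 263 were called within both extracts, 224 in the same direction and 39 in opposite directions. Without the first high Paeoniae Radix library the 1568 became 984, and with the high-dose libraries of a further extract, Astragali Radix, added to the model they became 287 and the 562 became 37. The model shares 1 estimate of spread over all its groups, and the reason for these lower counts was not tested.

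**Figure D2:**
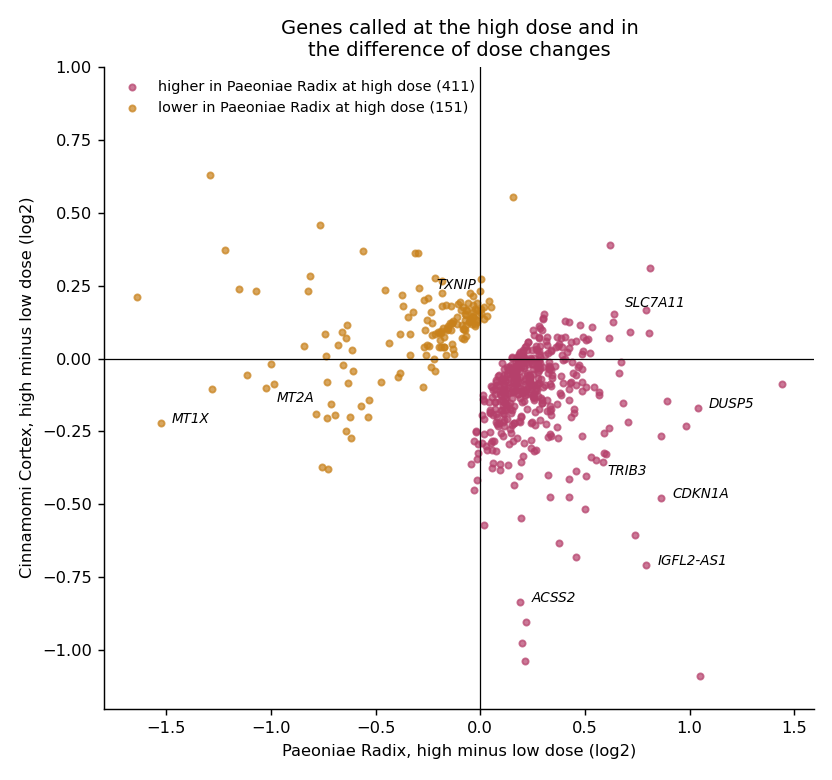
Each point is one of the 562 dose-dependent differences, with its log2 change from 20 to 500 µg/mL under Paeoniae Radix on the x axis and under Cinnamomi Cortex on the y axis. The selection places the 411 genes higher with Paeoniae Radix below and right of the 151 lower genes; DUSP5 and MT1X lie near the x axis, ACSS2 near the y axis.

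Genes of cholesterol synthesis were higher with Paeoniae Radix than with Cinnamomi Cortex almost throughout the pathway. Of 23 members tested, 20 were called higher and none lower, against 5.86% and 3.58% of all genes, and the median log2 difference was 0.37 against -0.01 over all genes. Of the 23, 17 were dose-dependent differences, against 2.47% of all genes. From low to high dose, 10 members rose under Paeoniae Radix (5.44% of all genes rose) and none fell, while 7 fell under Cinnamomi Cortex (2.81% of all genes fell) and none rose. With the Astragali Radix libraries in the model 14 of the 23 were called higher at the high dose, and 4 in the difference of dose changes.

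INSIG1 (chr7:155297776-155310235, GENCODE v29 on GRCh38), which holds SREBP in the endoplasmic reticulum, was at 233, 219 and 214 CPM with Paeoniae Radix and at 158, 137 and 134 CPM with Cinnamomi Cortex. The vehicle libraries were at 201, 191 and 182 CPM, between the extracts and without overlap. The difference between the extracts was 0.65 ± 0.06 (log2, SE), with an edgeR adjusted p of 8.6e-11, and it was made of a rise of 0.37 under Paeoniae Radix and a fall of 0.27 under Cinnamomi Cortex. LSS, the cyclase that forms lanosterol, was at 146, 143 and 137 CPM against 95.5, 100 and 93.2 CPM, with vehicle at 106, 106 and 105 CPM (0.57 ± 0.03, adjusted p = 6.7e-18). Its change was 0.20 under Paeoniae Radix and -0.35 under Cinnamomi Cortex, both called. At the start of the pathway HMGCS1, the cytosolic HMG-CoA synthase, differed by 0.42 ± 0.08. The call of HMGCS1 in the difference of dose changes (adjusted p = 0.019) was lost without any one of 5 libraries, at adjusted p of 0.053 to 0.086. NSDHL and PMVK were not called at the high dose, with log2 differences of 0.16 and 0.13.

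**Figure D3:**
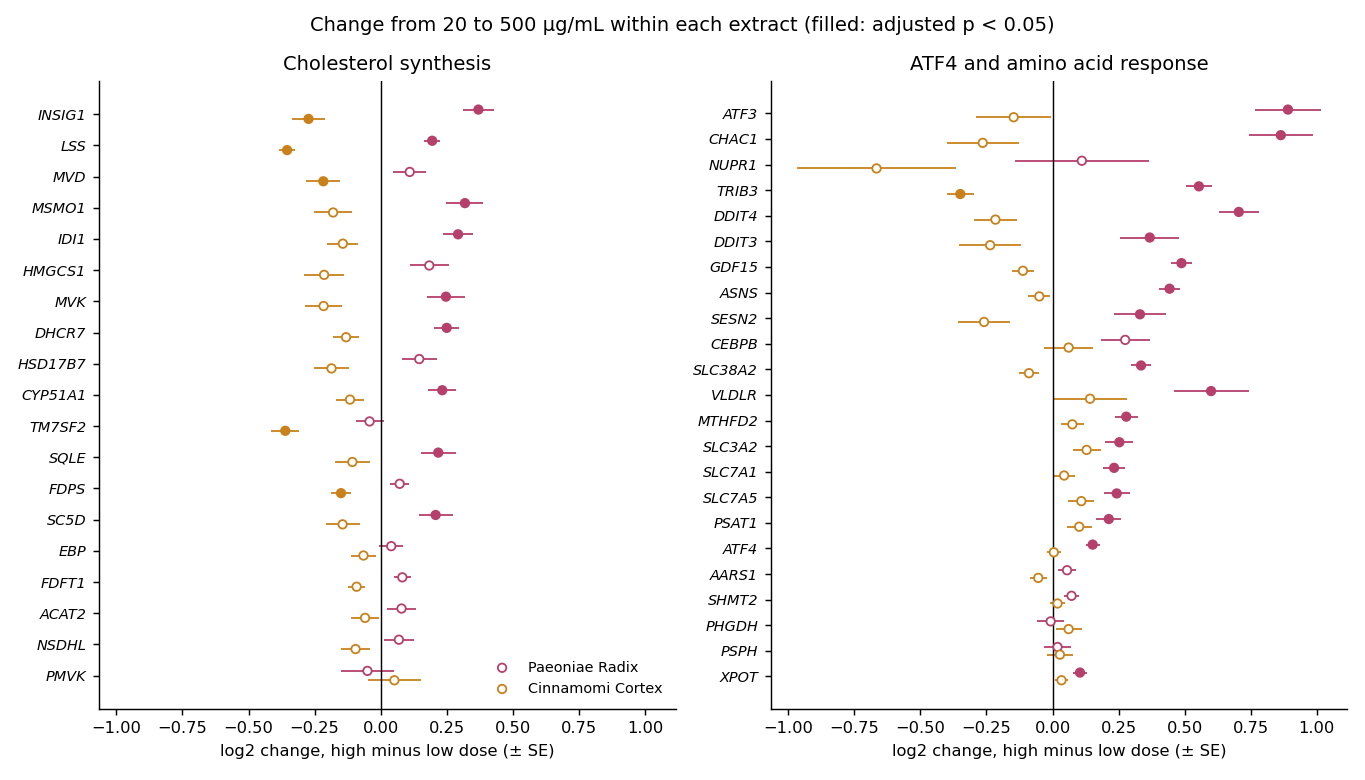
Log2 change from 20 to 500 µg/mL within each extract (x axis, bars are SE) for members of the cholesterol list (not every tested member is drawn) and the tested members of the ATF4 list (y axis, ordered by the difference at the high dose). In the left panel many Cinnamomi Cortex points lie below 0, LSS at -0.35 among them; in the right panel 17 filled Paeoniae Radix points lie above 0 and TRIB3 is the 1 filled Cinnamomi Cortex point.

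Fatty acid synthesis genes, which SREBP1 also controls, went both ways. Of 9 tested, 5 were higher with Paeoniae Radix and 2 (ELOVL6 and GPAM) were lower, against 5.86% and 3.58% of all genes. In the model with the Astragali Radix libraries 1 was called higher and none lower, and none was called in the difference of dose changes. Neither lower call was made without the first or the second high Paeoniae Radix library, and 1 was made without the third high Cinnamomi Cortex library. SCD, the stearoyl-CoA desaturase, was at 2470, 2300 and 2250 CPM with Paeoniae Radix and at 1480, 1420 and 1420 CPM with Cinnamomi Cortex. The vehicle libraries lay between the groups, at 1780, 1840 and 1730 CPM. Its difference was 0.71 ± 0.04 (adjusted p = 6.2e-19), made of a rise of 0.32 under Paeoniae Radix and a fall of 0.40 under Cinnamomi Cortex. ACSS2, which makes acetyl-CoA from acetate, was at 38.8, 33.2 and 32.7 CPM against 19.4, 15.7 and 15.8 CPM, a 2.06-fold difference. Its own change was called under Cinnamomi Cortex (-0.84) and not under Paeoniae Radix (0.19). SREBF1, the gene of SREBP1, differed by 0.36 ± 0.04, FASN by 0.30 ± 0.04 and ACSL3 by 0.28 ± 0.03, each with libraries that did not overlap. GPAM lost its call without the first or second high Paeoniae Radix library (adjusted p = 0.059 and 0.061).

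Among the LXR targets the sterol exporters went in different directions at the high dose: ABCG1 was higher with Paeoniae Radix (log2 0.53 ± 0.12) and ABCA1 lower (-0.50 ± 0.12), and neither was called in the difference of dose changes (adjusted p = 0.26 and 0.12). The sterol response element, searched on both strands, was found in none of the 16 listed cholesterol genes with a promoter in the RefSeq table and in 0.157% of 27305 genes, over the 250 bases before each start. Its letters are not in those windows, which says nothing of the factor's binding.

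Genes of the ATF4 and amino acid response were the second group that was higher with Paeoniae Radix. Of 23 tested, 18 were called higher and none lower, with a median log2 difference of 0.28, and 10 were dose-dependent differences. The shares over all genes were 5.86% higher and 2.47% dose-dependent in this direction. From low to high dose 17 members rose under Paeoniae Radix (5.44% of all genes rose) and none fell. Under Cinnamomi Cortex TRIB3 fell (2.81% of all genes fell) and no member rose. With the Astragali Radix libraries in the model 8 members were called at the high dose and 4 in the difference of dose changes.

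TRIB3, a pseudokinase that feeds back on ATF4, was at 56.6, 56.8 and 54.6 CPM with Paeoniae Radix and at 29.9, 26.5 and 28.8 CPM with Cinnamomi Cortex. The vehicle libraries were at 30.0, 31.8 and 27.4 CPM and overlapped those of Cinnamomi Cortex. Its difference was 0.99 ± 0.05 (adjusted p = 8.2e-19). TRIB3 was also 1 of the 3 genes called at the medium dose, at 42.0, 39.5 and 42.3 CPM against 34.4, 33.6 and 34.9 CPM (log2 0.27 ± 0.05, adjusted p = 0.026). CHAC1, which breaks down glutathione, was at 5.03, 6.05 and 5.19 CPM against 2.36, 2.25 and 2.37 CPM (log2 1.23 ± 0.13). ATF3, a stress-induced transcription factor, was at 6.34, 4.74 and 6.31 CPM against 2.18, 2.18 and 2.81 CPM (1.29 ± 0.13). In both genes no library of the extracts overlapped, and the change was called under Paeoniae Radix (0.86 and 0.89) and not under Cinnamomi Cortex.

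ASNS, the asparagine synthetase, was at 70.1, 71.7 and 71.6 CPM with Paeoniae Radix and at 47.6, 50.4 and 50 CPM with Cinnamomi Cortex, the latter near the vehicle at 54.2, 51.3 and 48.6 CPM (log2 difference 0.54 ± 0.04). DDIT4, an inhibitor of mTORC1, differed by 0.97 ± 0.08 and GDF15, a secreted stress cytokine, by 0.68 ± 0.04. DDIT3, the factor also called CHOP, differed by 0.70 ± 0.12, and its call in the difference of dose changes (adjusted p = 0.022) was lost without any one of 4 libraries, at 0.065 to 0.097. ATF4 itself differed by 0.17 in transcript level. Its adjusted p in the difference of dose changes was 0.014, and 0.065 without the first low Paeoniae Radix library. Of 18 genes of endoplasmic reticulum chaperones and the unfolded protein response, 3 were higher and 1 lower, against 5.86% and 3.58% of all genes. DNAJB9 differed by 0.43, HERPUD1 by 0.37 and CALR by -0.12. HSPA5, the main chaperone of that compartment, differed by -0.01 ± 0.03 (edgeR adjusted p = 0.91, unadjusted 95% interval -0.07 to 0.05). From low to high dose 10 of the 18 rose under Paeoniae Radix (6 without its first high library) and 7 under Cinnamomi Cortex. None fell, and 5.44% and 3.27% of all genes rose. With the Astragali Radix libraries in the model 1 was higher, and 1 and 0 rose within the extracts.

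The amino acid response element core, searched as TGATGNAA on both strands, was found before the start of 4 of 20 ATF4-list genes with a promoter in the table (AARS1, ASNS, ATF3 and CHAC1) and of 3.89% of 27305 genes. Because 3 of these 4 are dose-dependent differences, their 250 bases before the RefSeq start (build GRCh38.p14) that holds the match are shown, with the matched letters, read on either strand, in capitals. The second listed start of ATF3 and of ASNS held no match.
CHAC1, chr15:40953221-40953470, plus strand: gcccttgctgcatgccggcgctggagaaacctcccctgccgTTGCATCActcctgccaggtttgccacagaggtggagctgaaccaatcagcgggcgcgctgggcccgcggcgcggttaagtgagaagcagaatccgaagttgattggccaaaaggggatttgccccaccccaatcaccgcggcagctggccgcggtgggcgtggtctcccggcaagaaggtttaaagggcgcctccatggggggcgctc
ATF3, chr1:212565157-212565406, plus strand: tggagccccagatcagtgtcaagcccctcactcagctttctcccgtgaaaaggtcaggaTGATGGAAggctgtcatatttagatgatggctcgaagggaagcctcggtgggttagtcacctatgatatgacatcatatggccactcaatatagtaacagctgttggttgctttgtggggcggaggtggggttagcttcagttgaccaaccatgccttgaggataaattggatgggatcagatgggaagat
ASNS, chr7:97872409-97872658, minus strand: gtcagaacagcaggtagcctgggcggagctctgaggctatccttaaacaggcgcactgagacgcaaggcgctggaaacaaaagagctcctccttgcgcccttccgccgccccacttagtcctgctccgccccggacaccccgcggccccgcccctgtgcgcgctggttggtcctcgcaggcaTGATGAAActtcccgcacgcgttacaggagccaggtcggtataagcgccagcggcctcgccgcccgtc
The match in CHAC1 is on the strand opposite to the gene, and those in ATF3 and ASNS are on the gene's strand. A match describes the letters and not a bound site.

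CDKN1A (chr6:36676460-36687339), the gene of the cell cycle inhibitor p21, was among the clearest single differences. It was at 27.5, 23.4 and 25.4 CPM with Paeoniae Radix and at 11.1, 10.1 and 10.7 CPM with Cinnamomi Cortex, on either side of the vehicle at 14.1, 13.9 and 13.0 CPM. The 3 groups did not overlap. Its difference was 1.26 ± 0.08 (adjusted p = 2.2e-16), a 2.4-fold difference, with a rise of 0.86 under Paeoniae Radix and a fall of 0.48 under Cinnamomi Cortex. Few other p53 targets were called. Of 15 tested, GDF15 was also higher, SESN1 (-0.25) and BTG2 (-0.33) were lower, and 11 were not called, MDM2 among them at -0.03. Of all genes 5.86% were higher and 3.58% lower. The call of SESN1 was lost without the first high Paeoniae Radix library (adjusted p = 0.051).

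Genes driven by growth factor and MAPK signalling were higher with Paeoniae Radix, 16 of 22 tested and none lower, with a median log2 difference of 0.32 and 13 dose-dependent differences. The shares over all genes were 5.86% higher and 2.47% dose-dependent in this direction. From low to high dose 15 rose under Paeoniae Radix (5.44% of all genes), and under Cinnamomi Cortex FOSL1 rose (3.27% of all genes) and none fell. With the Astragali Radix libraries in the model 6 were called at the high dose and 1 in the difference of dose changes. DUSP5, a nuclear phosphatase that inactivates ERK, was at 7.91, 6.84 and 8.88 CPM with Paeoniae Radix and at 4.13, 2.88 and 3.53 CPM with Cinnamomi Cortex. The vehicle libraries, at 4.03, 3.88 and 3.72 CPM, overlapped those of Cinnamomi Cortex and not those of Paeoniae Radix. Its difference was 1.17 ± 0.12 (adjusted p = 3.1e-10), and its rise under Paeoniae Radix was 1.04. The immediate early genes EGR1, FOSB and JUNB differed by 0.74 ± 0.12, 0.68 ± 0.12 and 0.45 ± 0.04. Feedback inhibitors (SPRY4 at 0.40, DUSP6 at 0.35, DUSP4 at 0.33) and the ligands AREG (0.34) and EREG (0.21) were called in both tests as well. In the difference of dose changes DUSP4 lost its call without any one of 4 libraries (adjusted p = 0.05 to 0.1) and EREG without any one of 6 (0.05 to 0.13), and EREG did so at the high dose without any one of 3 (0.083 to 0.2). ETV4, ETV5, SPRY2, SPRED1, MYC and EGR2 were not called. EGR1 was at 21.1 to 24.5 CPM with Cinnamomi Cortex and 23.6 to 35.6 CPM with vehicle, and its call did not hold with the Astragali Radix libraries in the model (adjusted p = 0.27), nor did that of FOSB (0.62).

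**Figure D4:**
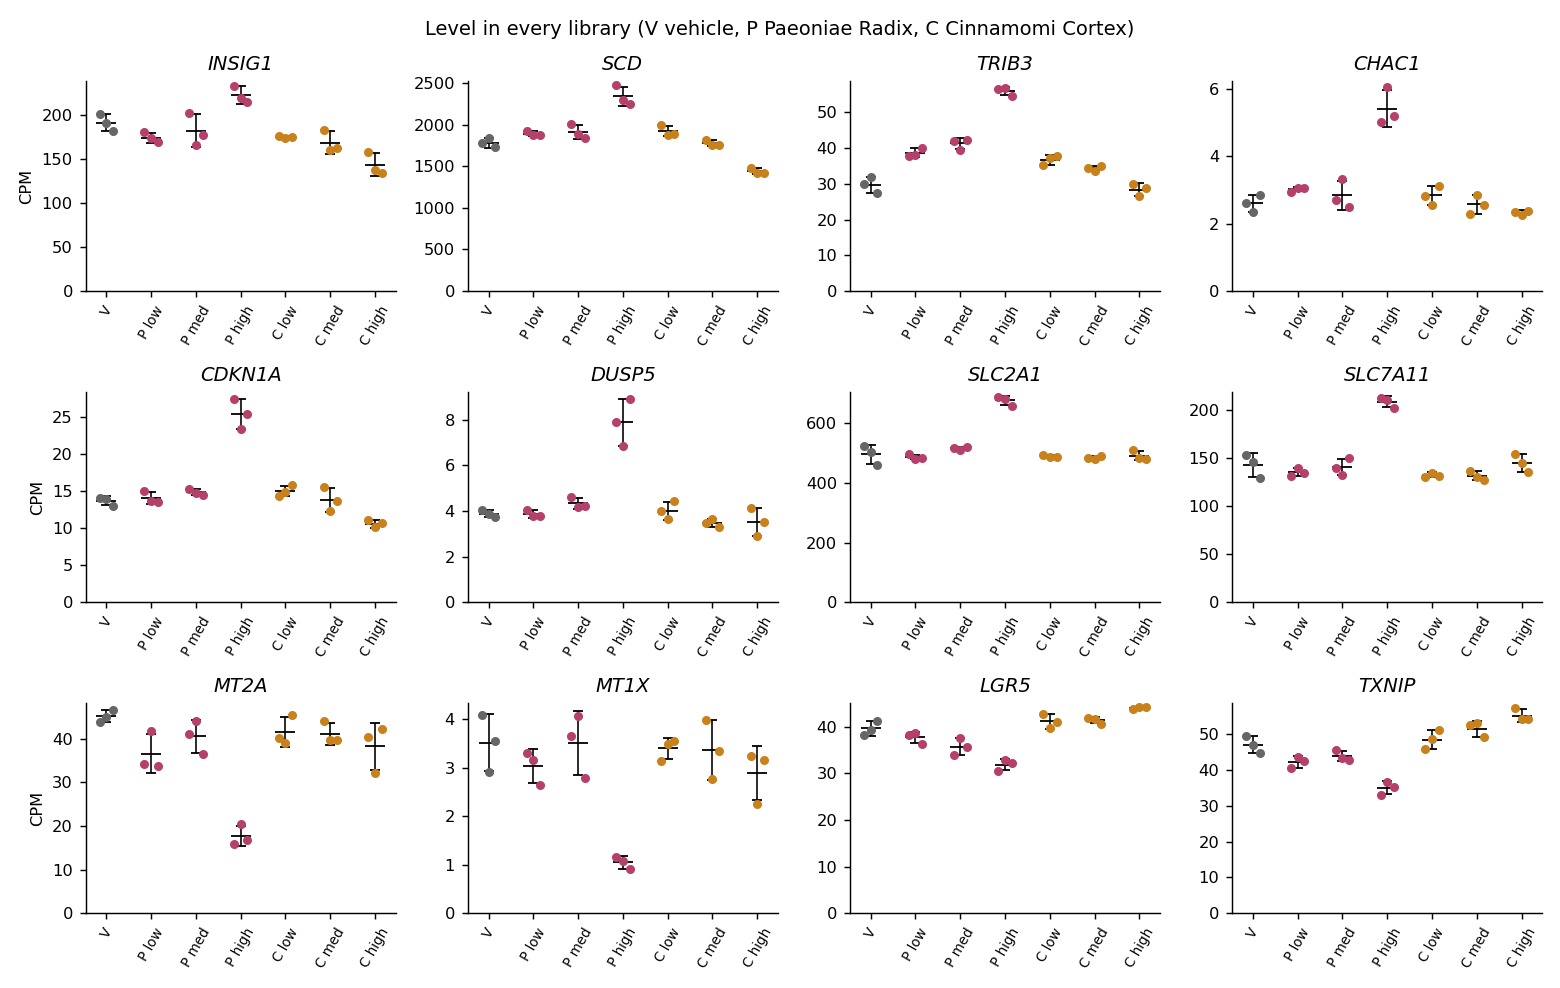
Level of 12 genes (y axis, CPM from 0) in every library of the vehicle and of the 3 doses of each extract (x axis); points are libraries, horizontal marks means and bars SD. High Paeoniae Radix stands apart for CHAC1, CDKN1A, DUSP5, SLC2A1, SLC7A11, MT2A and MT1X, and high Cinnamomi Cortex is the lowest group for INSIG1 and SCD.

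Glucose import and glycolysis genes were higher with Paeoniae Radix in part of each list. Of 20 hypoxia-type genes, 8 were higher and none lower (median 0.17), and all 8 were dose-dependent differences. Of 18 glycolysis genes, 8 were higher and none lower (median 0.11), and 4 were dose-dependent differences. For both lists the shares over all genes were 5.86% higher and 2.47% dose-dependent in this direction. The glycolysis count was 5 without the first high Paeoniae Radix or the third high Cinnamomi Cortex library. SLC2A1, the glucose transporter GLUT1, was at 688, 682 and 658 CPM with Paeoniae Radix and at 510, 484 and 480 CPM with Cinnamomi Cortex, where the vehicle was at 522, 505 and 459 CPM. Only the Paeoniae Radix libraries stood apart from the vehicle. The difference was 0.47 ± 0.03 (adjusted p = 9.6e-15), with a change of 0.49 under Paeoniae Radix and 0.03 under Cinnamomi Cortex. ALDOC, an aldolase, differed by 0.86 ± 0.06, made of changes of 0.42 and -0.41, and the angiogenic factor VEGFA by 0.50 ± 0.04, made of 0.28 and -0.17. The hypoxia markers CA9, EGLN3, ADM and BNIP3 differed by 0.02, 0.04, -0.02 and -0.06 and were not called. Within Cinnamomi Cortex 6 glycolysis genes rose and 1 fell, and within Paeoniae Radix 13 rose, so part of the glycolysis list moved under both extracts. Of all genes 3.27% rose within Cinnamomi Cortex and 5.44% within Paeoniae Radix. With the Astragali Radix libraries in the model 4 hypoxia-type and 3 glycolysis genes were called between the extracts, and 1 glycolysis gene was called as a rise within Cinnamomi Cortex. In that model the difference of dose changes was called for 2 hypoxia-type genes and 1 glycolysis gene.

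TXNIP, an arrestin that restrains glucose uptake, went the other way. It was at 33.1, 36.6 and 35.1 CPM with Paeoniae Radix and at 57.3, 54 and 54.1 CPM with Cinnamomi Cortex, with the vehicle between them at 49.3, 47.0 and 44.7 CPM. Its difference was -0.65 ± 0.04 (adjusted p = 9.6e-15), with a fall of 0.25 under Paeoniae Radix and a rise of 0.21 under Cinnamomi Cortex. TXNIP was called at the medium dose too, at 45.4, 43.3 and 42.7 CPM against 52.5, 52.9 and 49.0 CPM (-0.23 ± 0.04, adjusted p = 0.026). At the low dose its value was -0.19 with an adjusted p of 0.081. The third gene called at the medium dose was SELENOW, a small selenoprotein, named here after its values were seen. Its difference was -0.36 ± 0.04 at the medium dose and -0.28 ± 0.04 at the high dose. The difference of its dose changes was not called (adjusted p = 0.26).

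Targets of NRF2, the regulator of the antioxidant response, were higher with Paeoniae Radix for 15 of 28 tested and lower for none, with a median of 0.15, and 6 were dose-dependent differences. The shares over all genes were 5.86% higher and 2.47% dose-dependent in this direction. The high-dose count was 9 without the first or second high Paeoniae Radix or the second high Cinnamomi Cortex library, and 2 with the Astragali Radix libraries in the model. In that model none was called in the difference of dose changes. SLC7A11, the cystine importer, was at 213, 211 and 202 CPM with Paeoniae Radix and at 155, 145 and 136 CPM with Cinnamomi Cortex, the latter overlapping the vehicle at 153, 146 and 129 CPM. Its difference was 0.53 ± 0.05, and its adjusted p of 1.8e-10 became 0.097 with the Astragali Radix libraries. The enzymes ME1, which makes NADPH, and TKT, of the pentose phosphate pathway, differed by 0.29 and 0.23. AKR1B10, an aldo-keto reductase, rose under both extracts, by 0.62 and 0.39, and differed by 0.26 ± 0.04 between them, with an adjusted p of 0.053 in the difference of dose changes when the first high Paeoniae Radix library was left out. The classical targets NQO1 and HMOX1 were not called, at 0.08 ± 0.03 and 0.17 ± 0.06 (adjusted p = 0.15 and 0.11, unadjusted 95% intervals 0.01 to 0.14 and 0.05 to 0.29). NQO1 rose under both extracts (0.24 and 0.14). AKR1C1 differed by 0.48 ± 0.07, but it is near-identical to AKR1C2 (-0.02) and AKR1C3 (-0.19), between which the counting divides reads by estimation. The antioxidant response element core, TGACNNNGC, was before the start of 5 of 19 listed genes and of 13.2% of all genes.

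Drug-metabolism genes gave small differences. Of 6 PXR and CAR targets, ALAS1 (0.40), CYP3A5 (0.30) and POR (0.21) were higher with Paeoniae Radix and dose-dependent, while ABCB1, CYP2B6 and UGT1A1 were not called. The shares over all genes were 5.86% higher and 2.47% dose-dependent in this direction. In the difference of dose changes ALAS1 lost its call without any one of 6 libraries (adjusted p = 0.054 to 0.13) and POR without any one of 8 (0.052 to 0.14). With the Astragali Radix libraries in the model no PXR or CAR target was called in that difference. Among 9 AhR targets, 1 (CYP1B1) was lower with Paeoniae Radix and 1 (the amino acid transporter SLC7A5, 0.19) was higher, against 3.58% and 5.86% of all genes. From low to high dose 5 of the 9 rose within Paeoniae Radix and 4 within Cinnamomi Cortex, against 5.44% and 3.27% of all genes, and none fell. The 4 became 1 to 3 when a single library was left out. With the Astragali Radix libraries the 5 and the 4 became 1 and 0. SLC7A5 was not called without the first high Paeoniae Radix library (adjusted p = 0.21) or with the Astragali Radix libraries. CYP1B1 was at 38.5, 38.5 and 33.8 CPM against 62.2, 61.5 and 60.7 CPM (-0.72 ± 0.09), and a vehicle library stood at 89.1 CPM beside 55.0 and 50.9. CYP1A1, the most inducible AhR target, was at 0.674, 0.83 and 0.622 CPM against 1.55, 1.18 and 1.2 CPM and was not called (-0.87 ± 0.42, adjusted p = 0.22). Its vehicle libraries were at 5.93, 0.784 and 1.3 CPM, so that the same vehicle library was high for both genes. In the difference of dose changes CYP1B1 had an adjusted p of 0.051 without the third high Paeoniae Radix library. Both ferritin chains were higher with Paeoniae Radix, FTL by 0.19 and FTH1 by 0.18, and neither difference was called in the dose-change test. FTL lost its call without the second high library of either extract (adjusted p = 0.11 and 0.1).

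Lysosome and autophagy genes were higher with Paeoniae Radix for 12 of 22 tested and lower for none (median 0.16), and 6 were dose-dependent differences. The shares over all genes were 5.86% higher and 2.47% dose-dependent in this direction. The difference of dose changes was called for 3 without the second or the third high Cinnamomi Cortex library, and for 1 with the Astragali Radix libraries. SQSTM1, the autophagy receptor p62, was at 492, 455 and 462 CPM against 357, 341 and 330 CPM, with vehicle at 393, 407 and 324 CPM. Its difference was 0.46 ± 0.05 (adjusted p = 4e-10). The sialidase NEU1 differed by 0.39 ± 0.05 and fell under Cinnamomi Cortex by 0.29. Between 6 and 11 of the 22 were called when a single high-dose library was left out, with 6 without the first high Paeoniae Radix library, and 4 with the Astragali Radix libraries in the model. Among matrix and adhesion genes the laminin chains LAMA3 (0.63 ± 0.08) and LAMB3 (0.26 ± 0.04) and the integrin subunit ITGB4 (0.21) were higher and dose-dependent. LAMB3 lost its call in the difference of dose changes without any one of 5 libraries, at adjusted p of 0.051 to 0.14. LAMA3 lost its high-dose call with the Astragali Radix libraries (adjusted p = 0.29). No matrix or adhesion gene was called in the difference of dose changes with those libraries. Of 18 NF-kB targets, ICAM1 (0.68 ± 0.10), RELB (0.44), CXCL8 (0.41 ± 0.10) and NFKB2 (0.22) were higher, against 5.86% of all genes. RELB lost its call without the second high Cinnamomi Cortex library (adjusted p = 0.052), and NFKB2 without any one of 3 libraries (0.055 to 0.098). The chemokine CXCL8 rose under both extracts (0.64 and 0.35), and the difference of these changes was not called (adjusted p = 0.27). Within Cinnamomi Cortex 1 of the 18 NF-kB targets was called as a rise. None was by library totals or with the Astragali Radix libraries, and the count also reached 0 when single libraries were left out.

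**Figure D5:**
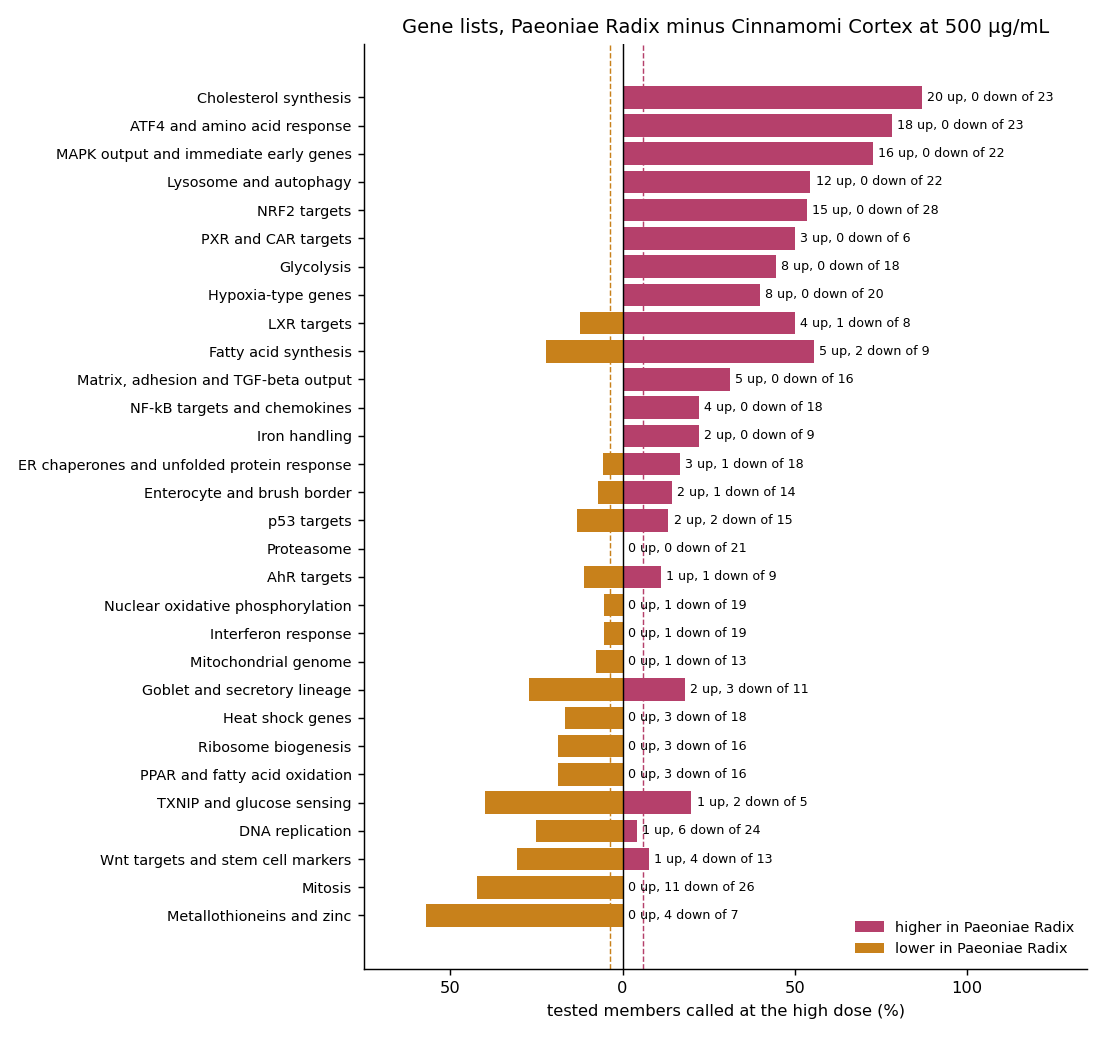
Share of tested members of each gene list called higher (right) or lower (left) with Paeoniae Radix than with Cinnamomi Cortex at 500 µg/mL (x axis, percent); dashed lines mark the shares over all genes, 5.86% higher and 3.58% lower. Cholesterol, ATF4 and MAPK lists reach furthest right and the metallothionein and mitosis lists furthest left.

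Metallothioneins were the clearest group lower with Paeoniae Radix. Of 7 genes of metallothioneins and zinc export tested, 4 were called lower and none higher at the high dose, against 3.58% of all genes, with a median of -0.50. Of the 4, 3 were dose-dependent differences (0.909% of all genes were, in this direction), and the call of the 4 held with the Astragali Radix libraries in the model. Under Paeoniae Radix 5 members fell from low to high dose (4.06% of all genes fell), and under Cinnamomi Cortex none was called. Of the 3, none was called in the difference of dose changes with the Astragali Radix libraries, and 2 of the 5 falls within Paeoniae Radix were.

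MT2A (chr16:56608199-56609497) was at 16, 20.4 and 16.8 CPM with high Paeoniae Radix and at 40.5, 32.2 and 42.2 CPM with high Cinnamomi Cortex. The vehicle was at 43.9, 45.0 and 46.6 CPM. The difference was -1.09 ± 0.12 (adjusted p = 6.4e-09). MT1E (chr16:56625475-56627112) was at 38, 39.8 and 39.0 CPM against 84.5, 74.1 and 89.2 CPM, with vehicle at 94.5, 89.0 and 92.0 CPM (-1.08 ± 0.08). MT1X (chr16:56682424-56684196) was at 1.17, 1.07 and 0.913 CPM against 3.25, 2.25 and 3.17 CPM, with vehicle at 4.08, 2.92 and 3.55 CPM (-1.45 ± 0.21). In all 3 genes the Paeoniae Radix libraries lay below every Cinnamomi Cortex and vehicle library. The zinc exporter SLC30A1, which MTF1 also controls, was at 31.5, 32.4 and 32.8 CPM against 40.4, 43.7 and 41.4 CPM (-0.36 ± 0.06), and the difference of its dose changes had an adjusted p of 0.053. MT1F, MT1A and MT1G were not called, at -0.24, -0.50 and 0.32. The MT1 genes are near-identical, so the share of reads given to each is an estimate.

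The metal response element core, TGCNCNC on both strands, occurred before the start of all 3 listed genes with a promoter in the table, MT2A (7 matches), MT1X (4) and SLC30A1 (1), and of 53% of all 27305 genes. The windows of the 2 metallothioneins, 250 bases before the RefSeq start on GRCh38.p14, are shown because these genes fell together. Capitals mark the matches on either strand.
MT2A, chr16:56608334-56608583, plus strand: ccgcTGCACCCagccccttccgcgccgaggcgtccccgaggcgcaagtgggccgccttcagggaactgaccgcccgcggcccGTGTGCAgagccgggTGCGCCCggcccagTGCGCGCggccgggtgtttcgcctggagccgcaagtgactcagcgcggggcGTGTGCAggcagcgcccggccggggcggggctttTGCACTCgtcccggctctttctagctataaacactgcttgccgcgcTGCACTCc
MT1X, chr16:56682220-56682469, plus strand: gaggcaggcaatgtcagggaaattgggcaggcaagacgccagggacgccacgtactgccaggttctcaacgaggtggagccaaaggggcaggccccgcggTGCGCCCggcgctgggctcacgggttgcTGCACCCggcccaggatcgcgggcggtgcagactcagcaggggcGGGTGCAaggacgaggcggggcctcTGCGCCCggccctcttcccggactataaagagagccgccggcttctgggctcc
Both windows hold several copies, a measure that the share over all genes, which counts 1 copy or more, does not weigh.

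FABP1, a fatty acid carrier of enterocytes, differed by -0.76 ± 0.19 and was dose-dependent. Paeoniae Radix had 3 of 16 members of the PPAR and fatty acid oxidation list called lower, HADHB (-0.15) among them, and none higher. Of all genes 3.58% were lower. CPT1A, which carries fatty acids into mitochondria, was not called (0.09). HADHB lost its call without any one of 4 libraries, at adjusted p of 0.09 to 0.22.

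Genes of cell division were slightly lower with Paeoniae Radix. Of 26 mitosis genes 11 were called lower (3.58% of all genes were) and none higher, with a median of -0.11. None was a dose-dependent difference. From low to high dose 14 rose under Cinnamomi Cortex (3.27% of all genes rose) and 1 under Paeoniae Radix, with a median of 0.13 under the former. The 14 were 7 without the first high Cinnamomi Cortex library and 9 without the third high or the second low library of that extract, and none with the Astragali Radix libraries. KIF11, a spindle motor, was at 110, 110 and 111 CPM with Paeoniae Radix and at 124, 122 and 123 CPM with Cinnamomi Cortex (-0.15 ± 0.03, adjusted p = 0.0013), where the vehicle was at 112, 107 and 106 CPM. HMMR differed by -0.21 ± 0.04 and AURKA by -0.16 ± 0.04, the latter without a call when the first or the third high Cinnamomi Cortex library was left out (adjusted p = 0.054 and 0.06). MKI67, the proliferation marker, was not called (-0.11 ± 0.07, adjusted p = 0.43, unadjusted 95% interval -0.25 to 0.04). The count at the high dose was 4 without the first high Cinnamomi Cortex library, 7 without the third of that extract and 6 without the second high Paeoniae Radix library, and 0 with the Astragali Radix libraries in the model.

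DNA replication genes had 6 lower and 1 higher of 24 tested, and 5 were dose-dependent differences, 4 of them subunits of the MCM helicase. Of all genes 3.58% were lower, 5.86% higher and 0.909% dose-dependent with the lower level under Paeoniae Radix. The difference of dose changes was called for 3 without the first high or first low Cinnamomi Cortex library. MCM6 was at 120, 126 and 124 CPM against 143, 134 and 136 CPM (-0.15 ± 0.03), and MCM4 differed by -0.16 ± 0.03. In the difference of dose changes the call of MCM6 was lost without the first high (adjusted p = 0.05) or first low Cinnamomi Cortex library (0.056), and that of MCM4 without any one of 8 libraries, at 0.069 to 0.17. Within Cinnamomi Cortex 14 of the 24 rose and none fell (8 rose without the third high library of that extract), and within Paeoniae Radix 4 rose and none fell. Of 16 ribosome biogenesis genes 3 were lower with Paeoniae Radix, 10 rose within Cinnamomi Cortex (median 0.16) and none was called within Paeoniae Radix. Of all genes 3.58% were lower with Paeoniae Radix, 3.27% rose within Cinnamomi Cortex and 5.44% within Paeoniae Radix. NOP56, a core snoRNP protein, was at 227, 226 and 240 CPM against 263, 273 and 273 CPM (-0.21 ± 0.04). Of 18 heat shock genes 3 were lower with Paeoniae Radix (CHORDC1, FKBP4 and DNAJA1, at -0.18, -0.13 and -0.11), against 3.58% of all genes. DNAJA1 was not called without any one of 5 libraries (adjusted p = 0.057 to 0.18). From low to high dose 7 of the 18 rose and 1 fell within Cinnamomi Cortex, and within Paeoniae Radix none rose and 1 fell. The inducible chaperone HSPA1A, whose copy HSPA1B is near-identical, differed by -0.03 ± 0.05 (adjusted p = 0.76). With the Astragali Radix libraries in the model no replication, ribosome biogenesis or heat shock gene was called between the extracts at the high dose. Nor was any of them called there in the difference of dose changes. In that model 1 replication gene and no ribosome biogenesis or heat shock gene rose within Cinnamomi Cortex, and 1 heat shock gene fell within Paeoniae Radix. Within Cinnamomi Cortex the direction of calls over all genes depended on the scaling, with 543 higher and 466 lower by TMM and 264 higher and 592 lower by library totals. By library totals 9 mitosis, 9 replication, 8 ribosome biogenesis and 4 heat shock genes still rose there.

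Part of the goblet and secretory list fell under both extracts. In bulk RNA, fewer cells of a type and less RNA per cell cannot be told apart. Of 11 goblet and secretory genes, 7 fell from low to high dose under Paeoniae Radix and 5 under Cinnamomi Cortex, against 4.06% and 2.81% of all genes. Under Cinnamomi Cortex 3 fell without the first or the second high library, or the second or the third low library, of that extract, and with the Astragali Radix libraries none did, against 6 under Paeoniae Radix. Between the extracts FCGBP, REG4 and ATOH1 were lower with Paeoniae Radix and SPDEF and AGR2 higher, against 3.58% and 5.86% of all genes. REG4, a secreted lectin, was at 16.9, 17.5 and 16.6 CPM against 22.6, 24.1 and 23.5 CPM, with vehicle at 36.2, 32.9 and 37.2 CPM. Its falls were 0.73 and 0.38, and the difference between them was called (-0.35 ± 0.07, adjusted p = 0.0028). ATOH1, the master regulator of secretory fate, was at 2.61, 2.92 and 2.49 CPM against 4.13, 3.58 and 4.21 CPM (-0.56 ± 0.13), without a call in the difference of dose changes (adjusted p = 0.19). The mucin MUC2 was at 11.2, 11.5 and 11.3 CPM against 13.4, 14.9 and 14.9 CPM and was not called (-0.33 ± 0.12, adjusted p = 0.079). FCGBP lost its call without any one of 4 libraries, at adjusted p of 0.086 to 0.12, and SPDEF without any one of 3, at 0.054 to 0.11. AGR2 lost its call in the difference of dose changes without any one of 7, at 0.057 to 0.12.

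LGR5, the intestinal stem cell receptor, was at 30.5, 32.8 and 32.2 CPM with Paeoniae Radix and at 43.7, 44.3 and 44.1 CPM with Cinnamomi Cortex. The vehicle, at 38.2, 39.3 and 41.3 CPM, lay between the extracts without overlap. The difference was -0.46 ± 0.05 (adjusted p = 2e-09), and it was dose-dependent, as was that of PROM1 (-0.20 ± 0.04). That of PROM1 was lost without any one of 9 libraries (adjusted p = 0.069 to 0.14). EPHB3 (-0.26) and the Wnt target AXIN2 (-0.13 ± 0.04) were called at the high dose alone, and RNF43 was higher (0.12). In all 4 of 13 Wnt and stem cell genes were lower and 1 higher, against 3.58% and 5.86% of all genes. Without the first high Paeoniae Radix or the second high Cinnamomi Cortex library 2 were lower. At the high dose EPHB3 lost its call without any one of 3 libraries (0.058 to 0.12) and AXIN2 without any one of 4 (0.055 to 0.11). Epithelial keratins KRT8 and KRT18 were higher by 0.12 and 0.11, calls that 4 libraries and 1 library, left out singly, ended (adjusted p = 0.05 to 0.17 and 0.07), and KRT20, a marker of differentiated enterocytes, was not called (0.14 ± 0.06, adjusted p = 0.12).

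Outside these lists, the largest dose-dependent difference at 2 CPM or more was in IGFL2-AS1, a long noncoding RNA antisense to IGFL2. It was at 18.2, 13.9 and 15.8 CPM with Paeoniae Radix and at 5.5, 5.31 and 5.38 CPM with Cinnamomi Cortex, where the vehicle was at 9.68, 10.7 and 7.88 CPM. The difference was 1.57 ± 0.14, a 2.97-fold difference, made of changes of 0.79 and -0.71. The strand setting of the counting is not known, so reads of this RNA and of the opposite gene cannot be told apart. ADM2, a peptide hormone, differed by 1.38 ± 0.19, AHNAK2 by 1.25 ± 0.13, LINC03040 by 1.10 ± 0.12 and the cell cycle regulator RGCC by 1.06 ± 0.13. In the other direction large differences besides the metallothioneins were in ST6GALNAC1, which makes the sialyl-Tn antigen (-0.94 ± 0.20), RARRES1 (-0.87 ± 0.10), the GABA receptor subunit GABRP (-0.80 ± 0.11) and RASL11A (-0.75 ± 0.13). RARRES1 was at 5.3, 7.07 and 6.8 CPM against 12.1, 11.1 and 12.2 CPM and GABRP at 8.13, 9.01 and 9.63 CPM against 15.4, 15.0 and 16.7 CPM, without overlap in either. In the difference of dose changes GABRP lost its call without the first high or second low Paeoniae Radix library (adjusted p = 0.054 and 0.071), and ST6GALNAC1 without the first low Cinnamomi Cortex library (0.051).

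At this depth several programmes had few or no calls between the extracts at the high dose, where 5.86% of all genes were higher and 3.58% lower. Of 21 proteasome genes none was called by edgeR in either direction, with a median of 0.00. Of 19 interferon genes OAS3 alone was called (-0.15), and not without the second high library of either extract (adjusted p = 0.068 and 0.16). Of 19 nuclear genes of oxidative phosphorylation UQCRC2 alone (-0.12). Of 13 genes of the mitochondrial genome MT-CO3 alone was called at the high dose, at 7940 to 8510 CPM with Paeoniae Radix and 10500 to 12500 CPM with Cinnamomi Cortex (-0.49 ± 0.09), and its adjusted p was 0.52 with the Astragali Radix libraries in the model. Of the 13 values 12 were below 0, and 2 genes were called lower in the difference of dose changes. Within Paeoniae Radix all 13 values were below 0 and 3 were called, against 4.06% of all genes. Over the alternatives 0 to 6, 0 to 9 and 1 to 10 of the 13 were called lower in these 3 comparisons, in that order. Over all genes, the split of calls within Paeoniae Radix was 904 higher and 675 lower by TMM and 649 higher and 819 lower by library totals. In simulated counts of the same design, 58.6% of genes changed by 0.3 and 79.6% of genes changed by 1 on the log2 scale were called in the right direction at the high dose. Called in both tests were 41.4% and 69.4%, and 7 unchanged genes of the 16365 tested were called at the high dose. The simulated spread followed the trend over genes, without the outlying libraries. Changes below 0.3 were not simulated, so these shares do not cover the small differences of the lists above.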

How the data were processed

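RNA of HT29 cells was sequenced as 100 bp paired-end reads with a directional kit, per the labels. The authors deposited expected counts per gene, estimated with RSEM 1.3.3 from reads trimmed with Trim Galore 0.6.5 and aligned with STAR 2.7.3a to hg38, per the submitters' processing notes. Which strand setting and annotation release they used is not given in the sources used here. Gene coordinates are those of GENCODE release 29, and promoter sequences are RefSeq's on GRCh38.p14. Columns of no listed sample (213) were not used, and entries with no gene name held 0.528% of counts.

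Expected counts were rounded and fitted with edgeR 4.0.16 (quasi-likelihood F test on TMM-scaled libraries, with low genes removed by filterByExpr) in R 4.3.3, over 51 libraries of 18 groups without the high Astragali Radix libraries, with Benjamini-Hochberg adjustment over 16608 genes and a threshold of 0.05. The SE of a log2 difference is its size divided by the square root of F. DESeq2 1.42.0, scaling by library totals, no filter, a replicate block, other sets of libraries and leaving out each library were the alternatives. The procedure was tested on simulated data. Whether the 3 libraries of a group stem from separate cultures is not in the labels. The p-values rest on the spread among libraries within groups, estimated over all 51 libraries of the 18 groups, other extracts included. That spread may be technical.

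The comparison and the gene lists were chosen with earlier results of these data known. Genes named are the 12 largest dose-dependent differences in each direction with libraries that do not overlap and at least 2 CPM, up to 4 called members of each list by size, and 22 genes given whatever their result. Other members were named after their values were seen. Some genes counted in the lists are not reported here by name.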

Additional observations from a re-analysis of the deposited data

Results flagged for a closer look

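The change from the low to the high dose differed between the extracts for 698 genes by a test of the difference itself, the interaction of extract and dose in edgeR. Among the genes called in that test and at the high dose, 39 changed under both extracts in opposite directions. Choosing genes by that test favours opposite signs. Over all 16608 genes tested, 263 were called within both extracts, 224 of them in the same direction. With the high Astragali Radix libraries in the model, 48 genes were called within Cinnamomi Cortex, against 1009 without them. CDKN1A rose by 0.86 on the log2 scale under Paeoniae Radix and fell by 0.48 under Cinnamomi Cortex, SCD rose by 0.32 and fell by 0.40, and TXNIP fell by 0.25 and rose by 0.21. No cause was tested.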

How the results depend on the processing

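The main model did not pair samples by replicate number. Between the extracts at the high dose, deviations of same-numbered libraries correlated at 0.058, -0.062 and 0.011, and of differently numbered ones at -0.082 to 0.068. From high to low dose same-numbered libraries correlated at 0.041, 0.043 and 0.031 within Paeoniae Radix and 0.071, 0.107 and 0.051 within Cinnamomi Cortex. Differently numbered ones there correlated at -0.044 to 0 and -0.066 to -0.002. Same-numbered libraries were thus slightly more alike within an extract, which the main model leaves out. With the replicate block 1787 genes were called at the high dose, 17 at the low dose, 8 at the medium dose and 876 in the difference of dose changes, and no described gene lost its call. With a replicate block within code set the low dose had 34 calls and the medium dose 18. DESeq2 called 27 and library totals 1 at the medium dose, and leaving out the filter gave 307 calls at 20 µg/mL and 147 at 100 µg/mL. With the high Astragali Radix libraries 287 were called at the high dose, 0 at the low and medium doses, 38 in the difference of dose changes, 37 in both tests, 303 within Paeoniae Radix and 48 within Cinnamomi Cortex. With only the groups compared, 0 were called at the low dose, 313 in the difference of dose changes, 279 in both tests, 911 within Paeoniae Radix and 373 within Cinnamomi Cortex. The cause was not tested.

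Leaving out single libraries gave 984 to 1375 calls at the high dose, 0 to 157 at the low dose, 1 to 3 at the medium dose, 457 to 732 in the difference of dose changes, 383 to 566 in both tests, 928 to 1473 within Paeoniae Radix and 579 to 711 within Cinnamomi Cortex. The lowest counts came without the first high Paeoniae Radix library (984, 383 and 928), the third low Paeoniae Radix library (457) and the first high Cinnamomi Cortex library (579). The uncalled HSPA1A ranged from -0.081 to 0.012 and HSPA5 from -0.028 to 0.024, with sign changes. Of 161 genes described or listed, 153 were called at the high dose, with no sign changed under any alternative. The call was lost for 81 with the Astragali Radix libraries, for 33 without a single library and for 7 with DESeq2, library totals or no filter, and 70 kept it in every alternative. Of 110 called in the difference of dose changes, 24 kept the call in every alternative.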

Other observations

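A further set of genes moved in the same direction under both extracts. From low to high dose 9.51% of the 16608 genes tested were called within Paeoniae Radix and 6.08% within Cinnamomi Cortex. Called within both by edgeR were 263 genes, 224 of them in the same direction (111 higher and 113 lower). Of the 224, 179 were not called between the extracts at the high dose, which does not show that their levels were equal. ALDH3A1, an aldehyde dehydrogenase, rose by 0.33 under Paeoniae Radix and 0.36 under Cinnamomi Cortex, and TXNRD1, the thioredoxin reductase, by 0.35 and 0.25. UGT1A1, which conjugates bilirubin, rose by 0.25 and 0.36. IRF9, a subunit of the interferon-responsive factor ISGF3, fell by 0.72 and 0.48, and the goblet cell peptide SPINK4 by 1.49 and 1.03. SPINK4 was at very low levels, 0.18 to 0.29 CPM with high Paeoniae Radix and 0.258 to 0.562 CPM with high Cinnamomi Cortex. The edgeR adjusted p of its falls was 0.01 and 0.044.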
